A study of Mus musculus with 21 samples.

Results

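Olfr1507, Olfr1508 and Olfr1509 are the odorant receptor genes whose expression depends on the H enhancer, a regulatory element beside their cluster on mouse chromosome 14. They are selected by a list of gene symbols, without a threshold on any measured value, and are 3 of the 22786 genes present in both deposited expression tables. The tables held 1242 and 1208 odorant receptor genes (symbols made of Olfr and a number), and the share of each of the 3 in the summed level of those genes was the second quantity read.

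An odorant receptor is a G protein-coupled receptor on the cilia of an olfactory sensory neuron (OSN). Each neuron settles on 1 allele of 1 receptor gene, and enhancers such as H, bound by Lhx2, Ebf and Ldb1, drive the chosen gene. H is the founding member of these enhancers. Deleting it abolishes or strongly reduces expression of Olfr1507 (known as Mor28), Olfr1508 (Mor10) and Olfr1509 (Mor83), while receptors farther along the chromosome are largely spared. Receptor protein then signals back through the unfolded protein response and Adcy3 to stabilise the choice as the neuron matures.

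RNA was sequenced from cells sorted out of the main olfactory epithelium of mice with a tetracycline-responsive transgene, in 21 libraries. All mice carried the gg8tTA driver, which is active in immature OSN, and every transgene included HyperTRIBE, an RNA-editing enzyme domain, and mCherry. The HT groups had genotype gg8tTA; OMPtTA; tetO-HyperTRIBE_mCherry, with 3 libraries of mCherry-positive immature and mature OSN (HT OSN) and 3 of mCherry-negative cells (HT neg). In the MexHT groups (gg8tTA; OMPtTA; tetO-Mex3a_HyperTRIBE_mCherry) the transgene joined Mex3a, an RNA-binding protein, to HyperTRIBE, with 6 MexHT OSN and 5 MexHT neg libraries. The gg8 MexHT groups (gg8tTA; tetO-Mex3a_HyperTRIBE_mCherry) lacked the OMPtTA driver, so that the sorted mCherry-positive cells were immature OSN only, with 2 libraries of each fraction. Per the labels, OSN and neg libraries of one construct and number came from the same mouse. The mice's ages are not given in the labels used here. The names of the gg8 libraries carry another date than the rest, so the effects of driver and date cannot be told apart.

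The 3 genes lie within 52442990 to 52495749 on chromosome 14 (GRCm38, GENCODE vM21). Olfr1509 (ENSMUSG00000035626.4) runs on the plus strand at chr14:52442990-52452574, Olfr1508 (ENSMUSG00000057564.6) on the minus strand at chr14:52458829-52467495, and Olfr1507 (ENSMUSG00000059887.7) on the minus strand at chr14:52488791-52495749. Each coding sequence sits in 1 exon: bases 52490021 to 52490962 for Olfr1507 (313 codons), 52463075 to 52464007 for Olfr1508 (310 codons) and 52450415 to 52451341 for Olfr1509 (308 codons). The coding sequences of Olfr1507 and Olfr1508 are alike at 93.0% of aligned bases, with a longest identical run of 143 bases. Olfr1509 shares 63.0% of aligned bases with Olfr1507 and 63.8% with Olfr1508.

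These stretches of coding sequence are shown because the likeness decides which reads can be told apart. In the first, all 60 bases are the same in Olfr1507 and Olfr1508, and capitals mark the 9 positions at which Olfr1509 is not alike; it covers coding bases 180 to 239 of the first pair and 171 to 230 of Olfr1509, 5′ to 3′ on the coding strand.
Olfr1507: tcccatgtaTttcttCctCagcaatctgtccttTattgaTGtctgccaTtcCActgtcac
Olfr1508: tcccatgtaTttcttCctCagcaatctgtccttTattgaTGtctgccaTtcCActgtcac
Olfr1509: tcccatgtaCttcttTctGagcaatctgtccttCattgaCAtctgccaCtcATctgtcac
In the second, coding bases 425 to 484, capitals mark the 12 positions at which Olfr1507 and Olfr1508 differ.
Olfr1507: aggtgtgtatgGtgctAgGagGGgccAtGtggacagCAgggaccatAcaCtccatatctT
Olfr1508: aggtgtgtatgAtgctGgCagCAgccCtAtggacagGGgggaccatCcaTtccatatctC

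Of all 50-base stretches in their GENCODE transcripts, 167 were shared between Olfr1507 and Olfr1508, 160 of them in coding sequence, out of 2954 and 5762. Shared with any other gene were 6.09% of the stretches of Olfr1507, 3.02% of those of Olfr1508 and 0% of those of Olfr1509. The length of 50 bases was chosen here and is not the known read length. A single read of that length from a shared stretch could not be assigned to 1 of the pair. Longer or paired reads could reach a base that differs. How the authors' counting treated shared reads is not given in the sources used here. The values of Olfr1507 and Olfr1508 are uncertain to an extent that depends on the reads, and no shared stretch was found in the GENCODE transcripts of Olfr1509. The gene lengths behind the TPM values (4784, 8503 and 3300 bases) are longer than the GENCODE exon unions (2877, 5791 and 2577 bases). Sequence outside the GENCODE transcripts was not searched.

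Promoter sequences from RefSeq (GRCm38.p6) were matched for 2 of the 3 genes, and are shown because the levels of the 3 genes followed each other across libraries. Capitals mark TTGGCA, the core letters bound by Nfi factors, on either strand.
Olfr1508 (chr14:52467496-52467711, minus strand, 216 bases): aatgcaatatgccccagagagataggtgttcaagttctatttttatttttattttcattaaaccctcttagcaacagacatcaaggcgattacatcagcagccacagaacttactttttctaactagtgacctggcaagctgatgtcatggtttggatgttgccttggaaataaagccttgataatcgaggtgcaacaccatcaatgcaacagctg
Olfr1509 (chr14:52450143-52450392, plus strand, 250 bases): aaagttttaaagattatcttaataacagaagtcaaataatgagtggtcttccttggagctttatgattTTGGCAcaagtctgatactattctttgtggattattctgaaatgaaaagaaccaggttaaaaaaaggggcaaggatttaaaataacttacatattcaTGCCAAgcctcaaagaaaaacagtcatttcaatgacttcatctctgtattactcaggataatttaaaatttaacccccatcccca
The Olfr1509 window lies before its RefSeq start, and inside the GENCODE span of the gene, upstream of its coding sequence. Whether the window falls in an intron or an exon was not checked. It held 2 matches of TTGGCA, and the Olfr1508 window held 0. Windows of 250 bases before the start held this motif in 12.3% of all 32851 promoters and in 12.3% of 948 receptor promoters. Neither window held TAATTA or TAATTG, letters bound by homeodomain factors such as Lhx2, or CCCNNGGG, the Ebf core, on either strand. Among the 948 receptor promoters at 250 bases, these were found in 18.0%, 22.6% and 2.74%, and among all promoters in 4.84%, 7.17% and 11.8%. At 216 bases the receptor promoters with TAATTA were 16.6%, with TAATTG 19.9%, with CCCNNGGG 2.64% and with TTGGCA 10.9%. All these windows lie before RefSeq starts, and RefSeq entries of some receptors are short. Those of Olfr1511, Olfr1512 and Olfr1513 span 957, 942 and 942 bases, against GENCODE exon unions of 1468, 2082 and 2873. Windows of such genes can lie inside the gene, as for Olfr1509, so the percentages do not describe promoters alone.

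Libraries held 7334702 to 15057933 counted reads. Mex3a, the gene added by the MexHT transgene, stood at 23.96 to 61.5 TPM (transcript abundance per length, scaled to one total per library) in HT OSN and at 328 to 1271 TPM in MexHT OSN, in the order the labels give. It reached 460 and 1632 TPM in gg8 MexHT OSN. In mCherry-negative cells Mex3a was at 29.3 to 74.3 TPM in HT neg and 57.8 to 207 TPM in MexHT neg, overlapping ranges. In gg8 MexHT neg Mex3a was at 211 and 101 TPM, so its RNA was not confined to the sorted OSN. Omp, the marker of mature OSN, was present in every group, at 1785 to 2704 TPM in HT OSN, 682 to 1597 in MexHT OSN, 1093 to 2159 in HT neg, and 46.9 to 1431 in MexHT neg. Omp RNA was thus found in every mCherry-negative library. In the gg8 mice Omp was at 53.8 and 164 TPM in OSN against 1937 and 3561 in neg. One library stood apart: in the second gg8 MexHT OSN library only 4 receptor genes reached 1 TPM and all receptors summed to 79.3 TPM, against 165 genes and 904 TPM in the first.

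Olfr1507 was the most abundant receptor of all 1242 by mean level in HT OSN. Its level was 154, 47.2 and 32.6 TPM in the 3 HT OSN libraries (mean 78.0 ± 66.4 SD, n = 3), from 2623, 793 and 436 reads. It was 69.2, 42.7 and 25.7 TPM in HT neg (45.9 ± 21.96, n = 3). In both fractions the first HT mouse was the highest and the last of the 3 the lowest. In MexHT OSN the 6 libraries ran from 4.54 to 26.1 TPM with a median of 9.78 (mean 13.0 ± 9.16, n = 6), from 59 to 372 reads. All 6 lay below the lowest HT OSN library. MexHT neg libraries had 30.1, 58.8, 6.02, 17.5 and 10.6 TPM (24.6 ± 21.2, n = 5), a range that crosses both HT neg and MexHT OSN. In the gg8 mice Olfr1507 was at 0.885 and 0.386 TPM in OSN, from 15 and 9 reads, and at 16.4 and 38.4 TPM in neg, from 304 and 663 reads. By group mean it ranked 1st in HT OSN, behind only Olfr464 and Olfr536 in MexHT OSN, 2nd behind Olfr536 in HT neg, MexHT neg and gg8 MexHT neg, and 134th of 1208 in gg8 MexHT OSN.

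Olfr1508, which lies between the other two, was lower. Its TPM was 40.3, 16.1 and 6.78 in HT OSN (21.0 ± 17.3, n = 3) and 17, 15.2 and 5.91 in HT neg (12.7 ± 5.96, n = 3). In MexHT OSN it ran from 1.38 to 14.4 TPM with a median of 4.45 (6.45 ± 5.72, n = 6). The lower HT OSN library at 6.78 TPM fell inside that range, so the groups overlapped. MexHT neg libraries had 9.55, 13.1, 3.24, 3.69 and 3.88 TPM (6.70 ± 4.43, n = 5). In gg8 MexHT OSN it was at 0.398 and 0.0241 TPM, from 12 reads and 1 read, against 6.46 and 9.53 TPM in neg. A count of 1 read has an exact 95% Poisson interval of 0.0253 to 5.57 reads, which covers counting error only, here and for every count. By mean level Olfr1508 ranked 10th in HT OSN, 9th in MexHT OSN, 17th in HT neg, 14th in MexHT neg, 128th in gg8 MexHT neg and 679th in gg8 MexHT OSN.

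Olfr1509, the gene of the 3 on the opposite strand, was the lowest in every group with both drivers. Its TPM was 8.78, 3.28 and 2.71 in HT OSN (4.92 ± 3.35, n = 3) and 6.49, 6.34 and 2.28 in HT neg (5.04 ± 2.39, n = 3). In MexHT OSN it ran from 0.606 to 2.38 TPM with a median of 1.46 (1.47 ± 0.741, n = 6), from 5 to 26 reads. All 6 again lay below the lowest HT OSN library. MexHT neg libraries had 3.04, 3.71, 1.16, 1.82 and 0.918 TPM (2.13 ± 1.21, n = 5), which overlapped HT neg. In gg8 MexHT OSN 5 reads and 1 read gave 0.428 and 0.0621 TPM, against 5.08 and 4.29 TPM in neg. Its rank by mean level was 114th in HT OSN, 150th in MexHT OSN, 122nd in HT neg, 180th in MexHT neg, 337th in gg8 MexHT neg and 607th in gg8 MexHT OSN.

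**Figure D1:**
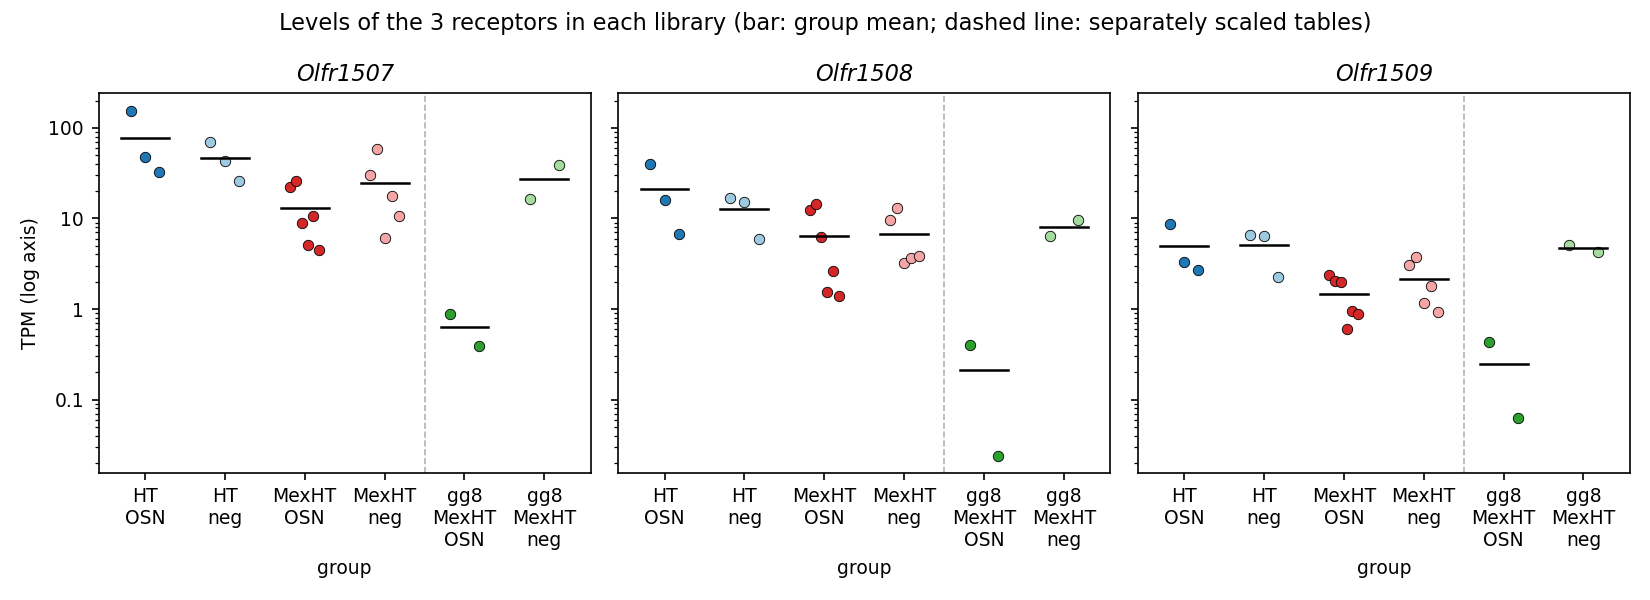
Level of each receptor in TPM on a log axis in each of the 21 libraries (points) with group means (bars); the dashed line divides the separately scaled tables. The 6 MexHT OSN points of Olfr1507 and Olfr1509 lie below all 3 HT OSN points, and the gg8 MexHT OSN points lie at or below 0.885 TPM.

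The order of the 3 genes was the same in nearly every library. Per length, Olfr1507 was above Olfr1508 in 21 of 21 libraries and Olfr1508 above Olfr1509 in 19, the other 2 being the gg8 MexHT OSN libraries with few reads. The gene lengths behind the TPM values, 4784, 8503 and 3300 bases in the order of their names, are longer than the exon unions of GENCODE (2877, 5791 and 2577 bases), and set the scale between genes. In reads, without length, the full order held in 19 libraries. Olfr1507 made up 70.9 to 77.5% of the summed TPM of the 3 in HT OSN and 52.0 to 74.7% in MexHT OSN. The ratio of Olfr1507 to Olfr1508 TPM was 2.93 to 4.81 in HT OSN and 1.43 to 4.01 in MexHT OSN, overlapping ranges.

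Among the 4 groups with both drivers, mean levels of Olfr1507 and Olfr1508 followed the order HT OSN, HT neg, MexHT neg, MexHT OSN. Each neighbouring pair in that order overlapped and did not pass limma's test. For Olfr1509 the order began with HT neg and HT OSN, at 5.04 and 4.92 TPM, and went on with MexHT neg and MexHT OSN. Its neighbours overlapped too, HT OSN and MexHT neg between 2.71 and 3.71 TPM.

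Between constructs within sorted OSN, Olfr1507 and Olfr1509 were lower with the Mex3a fusion and Olfr1508 did not pass the test. On the scale of log2(TPM + 1), which understates changes of low genes, limma fitted over 16067 genes gave Olfr1507 a difference of −2.44 (SE 0.60, 95% interval −3.77 to −1.11, adjusted p = 0.0105), or 5.42-fold lower. Olfr1509 was 2.26-fold lower, with −1.18 (SE 0.37, interval −2.0 to −0.36, limma adjusted p = 0.0305). Olfr1508 differed by −1.64 (SE 0.71, interval −3.20 to −0.07, limma adjusted p = 0.0928). Of all genes tested 36.8% were called and 16.8% were called lower; 16.9% were lower in all MexHT OSN than in all HT OSN libraries. In bulk samples, fewer cells that chose a receptor and less of its RNA per cell cannot be told apart.

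The same comparison gives the background of other receptors. Of 391 receptors with a mean of at least 1 TPM, 99 (25.3%) were called lower and 1 was called higher, with a median difference of −0.85 against 0.03 over all genes. Ordered from the most negative, Olfr1507 stood 6th of the 391, Olfr1508 34th and Olfr1509 114th, between extremes of −3.10 and 1.36. The fit keeps receptors by their mean over both groups, so these counts are a description and support no direction.

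**Figure D2:**
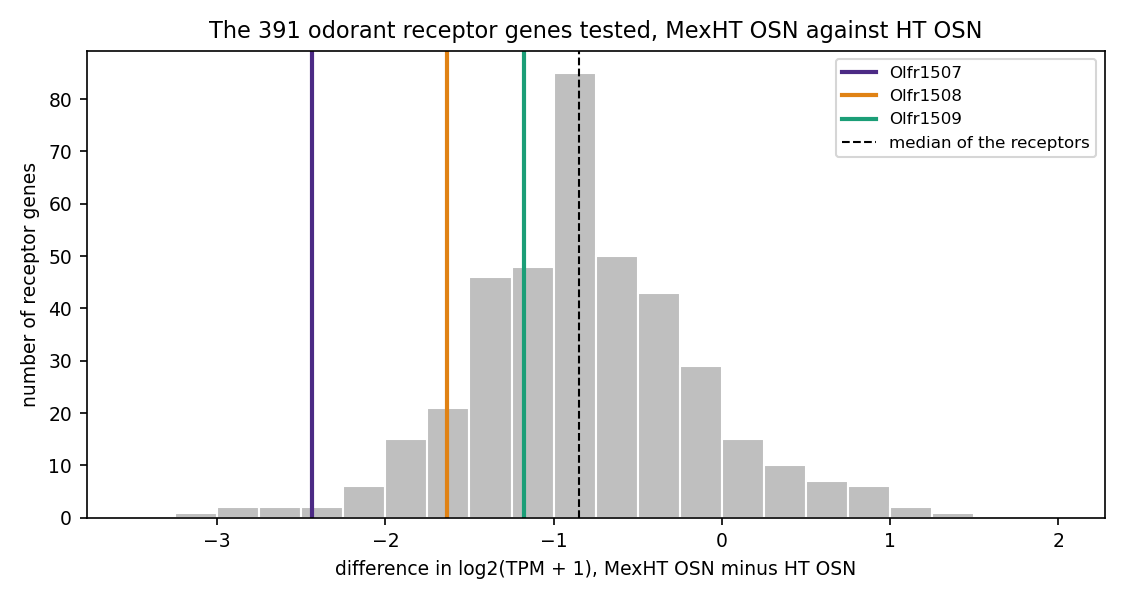
Histogram of the difference in log2(TPM + 1) between MexHT OSN and HT OSN for the 391 receptor genes tested, in number of genes per bin, with the 3 receptors (coloured lines) and the median (dashed). The line of Olfr1507 at −2.44 lies in the lower tail, and the lines of Olfr1508 at −1.64 and Olfr1509 at −1.18 lie between it and the median of −0.85.

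The calls depended on single libraries. Without the first HT OSN library the differences were −1.79 for Olfr1507 (limma adjusted p = 0.0562) and −0.74 for Olfr1509 (limma adjusted p = 0.156), neither called. The call of Olfr1509 was also lost without HT OSN 2, MexHT OSN 4 or MexHT OSN 6 (limma adjusted p = 0.0519, 0.0542 and 0.0549). Xist, the RNA of the inactive X chromosome of females, was at or under 0.14 TPM in HT OSN libraries 1 and 3 and at 60.3 TPM in library 2, while all MexHT OSN libraries had 58.4 to 139.8 TPM. With the Xist level as a covariate the differences were −1.67 (limma adjusted p = 0.376) and −0.65 (limma adjusted p = 0.572). The second HT OSN library, the one with Xist, had 47.2 TPM of Olfr1507 and 3.28 TPM of Olfr1509, both above all 6 MexHT OSN libraries. That is 1 library, and the effects of construct and of Xist level cannot be told apart in this comparison.

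Markers of other cell types and stages differed between the constructs in sorted OSN too. All 5 immune cell markers were called lower in MexHT OSN, their summed level being 120 to 244 TPM against 587 to 2534 TPM in HT OSN, with none at 0. The same sum was 250 to 464 TPM in HT neg and 411 to 641 TPM in MexHT neg. HT OSN libraries thus held more of this sum than HT neg libraries, though Ptprc and Tyrobp had lower means in HT OSN than in HT neg. Of 6 mature OSN markers 5 were called lower (summed 1665 to 5170 against 6800 to 10799 TPM), and of 7 immature OSN markers 5 were called higher (3972 to 4623 against 2503 to 2589 TPM). Over all genes 19.9% were called higher. Of 6 progenitor markers 2 were called higher, and of 5 sustentacular and 3 basal cell markers 0 in either direction. The part of these in the receptor levels was not tested.

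Factors that bind receptor enhancers were called in both directions. Of 10 listed for this comparison, beside 19.9% of all genes called higher and 16.8% lower, 3 were called higher in MexHT OSN: Lhx2 by 0.57 (limma adjusted p = 0.00325), its partner Ldb1 by 0.30 (adjusted p = 0.0330) and the homeodomain factor Emx2 by 0.46 (adjusted p = 0.00386). Lhx2 had a mean of 540 ± 53.0 TPM (SD, n = 6) against 363 ± 6.01 TPM (n = 3). Lower were Ebf2 at −0.74, Ebf4 at −0.85 and Nfix at −0.71, and the median of the 10 was 0.05. Of 7 genes of receptor feedback and trafficking, Kdm1a, the histone demethylase needed for receptor choice, rose by 1.01 and Eif2ak3, the kinase Perk of the unfolded protein response, by 0.74. Rtp1, a chaperone that carries receptors to the membrane, fell by 0.89, and Atf5, Ddit3, Rtp2 and Reep1 did not pass.

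Genes that turn receptor activation into current were mostly lower. Of 10, 8 were called lower and 0 higher with a median of −1.42, against 16.8% of all genes called lower. Adcy3, the adenylyl cyclase of the cilia, fell by 2.72 on the log2 scale (limma adjusted p = 0.000765), from 924 ± 206 TPM in HT OSN (n = 3) to 151 ± 66.1 TPM in MexHT OSN (n = 6). The channel subunits Cnga4 and Cngb1 had −2.48 and −1.83. Gnal, the olfactory G protein alpha subunit, at −1.39, and Gnb1 at −0.47 did not pass.

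As a share of summed receptor TPM, none of the 3 receptors passed the exact test between MexHT OSN and HT OSN. All receptors together summed to 3340, 3237 and 912 TPM in HT OSN and to 523 to 1323 TPM in MexHT OSN. Olfr1507 took 4.62%, 1.46% and 3.58% of that sum in HT OSN (mean 3.22 ± 1.61%, n = 3) and 0.575 to 2.05% in MexHT OSN (1.296 ± 0.661%, n = 6). In 3 of 6 MexHT OSN libraries the share was below all HT OSN libraries. The two-sided exact permutation test gave p = 0.0952 where the design allows 0.0238, and 0.682 after adjustment over the 15 share tests. Olfr1508 had 0.815 ± 0.360% in HT OSN and 0.583 ± 0.396% in MexHT OSN, and Olfr1509 had 0.2204 ± 0.105% and 0.1502 ± 0.0428%, with exact p = 0.405 and 0.143. The 3 together took 6.09, 2.06 and 4.62% in HT OSN and 0.818 to 3.34% in MexHT OSN.

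**Figure D3:**
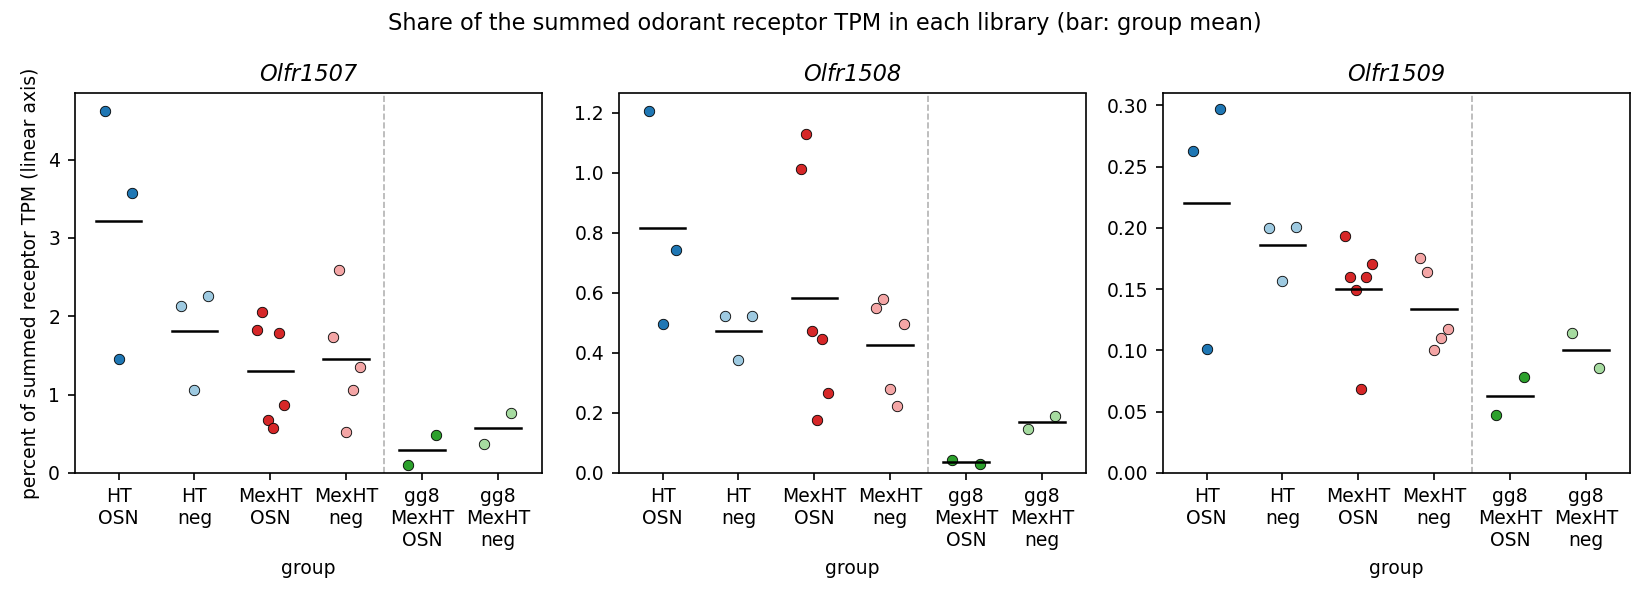
Percent of the summed receptor TPM taken by each receptor in each library (points) with group means (bars), on linear axes that differ between panels. HT OSN points of Olfr1507 spread from 1.46 to 4.62%, across the upper part of the MexHT OSN range of 0.575 to 2.05%.

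In the mCherry-negative cells of the same constructs, none of the 3 receptors passed the test. The differences of MexHT neg from HT neg were −1.16 for Olfr1507 (interval −2.63 to 0.32, limma adjusted p = 0.319), −0.90 for Olfr1508 (−2.01 to 0.22, 0.311) and −0.94 for Olfr1509 (−1.85 to −0.02, 0.239). The background was 0% of 16860 genes called by limma, and 0 by voom on recovered counts; 20.6% had an unadjusted limma p below 0.05. The 604 receptors tested had a median of −0.54. Shares of Olfr1507 were 1.06 to 2.26% in HT neg and 0.517 to 2.59% in MexHT neg (exact p = 0.500). Mature OSN markers summed to 4098 to 8614 TPM in HT neg and 335 to 5532 TPM in MexHT neg, and Xist was under 0.14 TPM in 2 of 3 HT neg and at 55.3 to 163 TPM in all MexHT neg libraries. The part of either in the differences was not tested.

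Within MexHT mice, none of the 3 receptors passed the test between sorted OSN and mCherry-negative cells, while 63.4% of 16522 genes were called, 35.8% higher and 27.6% lower. Olfr1507 had −0.74 (interval −1.96 to 0.48, limma adjusted p = 0.265), Olfr1508 −0.26 (−1.44 to 0.92, 0.692) and Olfr1509 −0.31 (−0.95 to 0.33, 0.373). Of 376 receptors 9 were called higher and 112 lower, with a median of −0.52. The median over all genes was 0.16, and 0.03 under median-of-ratios scaling. In the same cells 6 of 10 enhancer binding factors were called higher in OSN and 1 lower. Lhx2 was higher by 1.16 (limma adjusted p = 4.11e-05), Emx2 by 1.53, Ebf3 by 1.18 and Ebf4 by 1.14, and Nfix was at −0.55. In the odor transduction list Gnb1 and Cnga2 were called higher and the other 8 did not pass. By mouse, OSN were above neg in 2 of 5 for Olfr1507, 3 of 5 for Olfr1508 and 2 of 5 for Olfr1509. MexHT mouse 3 was higher in OSN for all 3 genes, and mouse 4 was lower for all 3.

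Within HT mice the 3 receptors did not pass either. Differences of OSN from neg were 0.54 for Olfr1507 (interval −0.90 to 1.98, limma adjusted p = 0.548), 0.48 for Olfr1508 (−1.06 to 2.02, 0.620) and −0.07 for Olfr1509 (−1.25 to 1.11, 0.932). Of 17027 genes 11.3% were called, 371 higher and 1552 lower, and with the mouse as a block 2255 and 2712; the 3 receptors remained uncalled. Of 668 receptors 1 was called in each direction. Olfr1507 and Olfr1508 were higher in OSN in 3 of 3 mice, with a mean difference for Olfr1507 of 0.54 ± 0.53 (SD) and a largest one, 1.14, in the first mouse. Olfr1509 was higher in 2 of 3. Shares of Olfr1507 were higher in OSN in 3 of 3 mice, by 2.48, 0.402 and 1.31 percentage points. The exact permutation test, which ignores the mouse, gave p = 0.3 where it can reach 0.1. Flipping the signs of the within-mouse differences gave an exact p = 0.25, the lowest that 3 mice allow.

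Whether the OSN difference depends on the construct was tested as an interaction over the 17 libraries with both drivers. It gave −1.28 for Olfr1507 (interval −3.28 to 0.72, limma adjusted p = 0.407), −0.74 for Olfr1508 (−2.73 to 1.25, 0.656) and −0.24 for Olfr1509 (−1.42 to 0.95, 0.827). The background was 12.4% of 16785 genes, 1184 higher and 902 lower, or 714 and 1053 under median-of-ratios scaling.

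**Figure D4:**
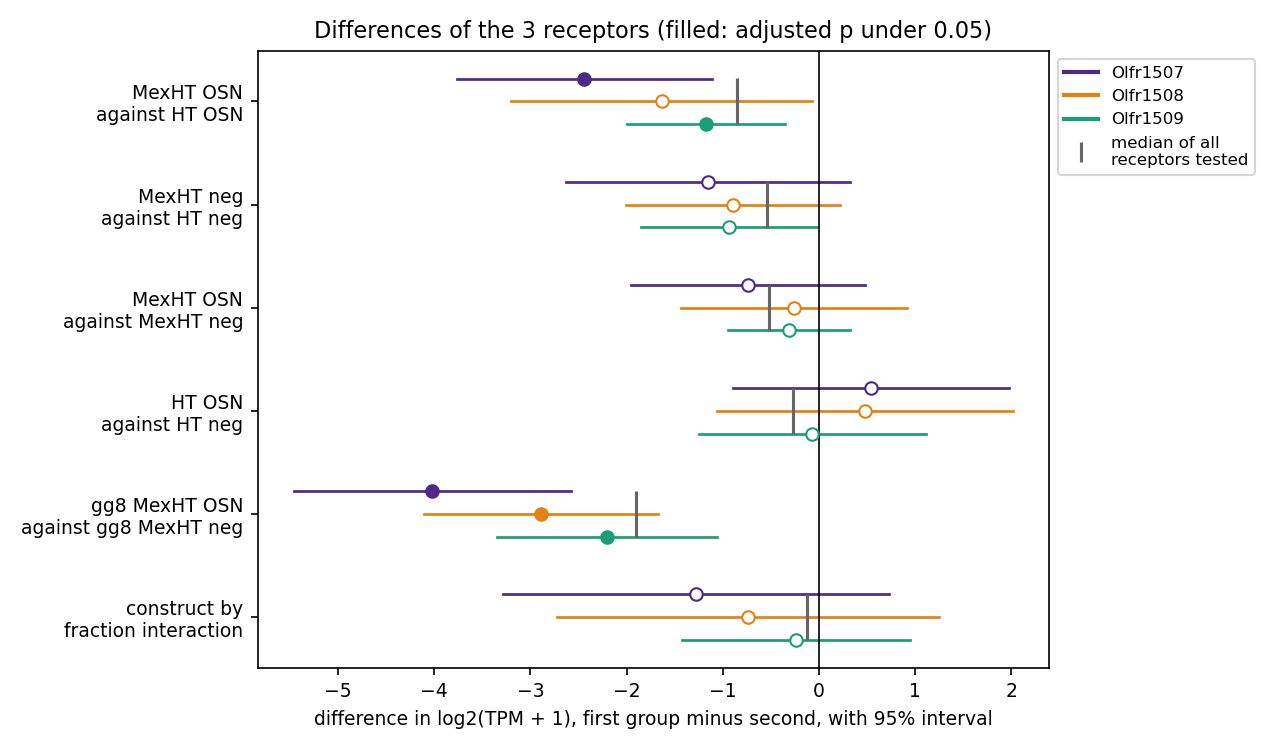
Difference in log2(TPM + 1) of each receptor in the 5 comparisons and the interaction, with 95% intervals; filled points passed an adjusted p of 0.05 and grey ticks mark the median of all receptors tested. The points that passed are Olfr1507 and Olfr1509 in MexHT OSN against HT OSN and all 3 in gg8 MexHT OSN against gg8 MexHT neg.

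In the mice with the gg8 driver alone, all 3 receptors were lower in the sorted immature OSN than in the mCherry-negative cells of the same mice. Olfr1507 differed by −4.02 (interval −5.46 to −2.58, limma adjusted p = 0.0241), 16.2-fold lower on the log2(TPM + 1) scale. Olfr1508 differed by −2.89 (−4.10 to −1.67, limma adjusted p = 0.0296), 7.41-fold, and Olfr1509 by −2.20 (−3.35 to −1.06, limma adjusted p = 0.0433), 4.60-fold. Both mice showed it for each gene, and the groups did not overlap. Of 16490 genes 8.32% were called and 7.2% were called lower, and 30.2% were lower without overlap. Of 861 receptors tested, 305 (35.4%) were called lower, with a median of −1.90, and Olfr1507 stood 6th, Olfr1508 89th and Olfr1509 278th from the most negative. The level filter kept most of these through the neg libraries, in which 1006 and 1014 receptors reached 1 TPM, so these counts are a description too.

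With 2 mice a group, the calls depended on single libraries. Leaving out either neg library or the second OSN library left 0 genes called by limma, and without that OSN library, the one with few receptor reads, Olfr1507 had −3.80 (limma adjusted p = 0.105). With a pseudocount of 0.1 the differences of Olfr1508 and Olfr1509 were −5.00 and −4.03 and no longer called (limma adjusted p = 0.0579 and 0.0813), while Olfr1507 had −5.19 (0.0313). Voom on recovered counts called all 3, at −5.45, −6.12 and −4.61 (limma adjusted p = 0.0350, 0.0337 and 0.0399), so the size of the change depends on how low counts are handled. Mature OSN markers moved the same way: 5 of 6 were called lower in gg8 OSN, summing to 186 and 492 TPM against 6186 and 11151 TPM in neg, and 8 of 10 odor transduction genes were called lower. Their part in the receptor levels was not tested. Xist was at 0.441 and 159 TPM in gg8 MexHT OSN and at 0.144 and 21.4 TPM in gg8 MexHT neg, in the order of the mice. The part of Xist level was not tested here either. Of the 10 enhancer binding factors 0 were called in either direction; Lhx2 was at 0.79, Ldb1 at 0.56, Ebf4 at −2.34 and Emx2 at 1.07.

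Shares also ran lower in gg8 MexHT OSN, but the exact permutation test, which ignores the mouse, allows no p under 0.333 here. Flipping the signs of the within-mouse differences gave an exact p = 0.5 for each receptor, the lowest that 2 mice allow. Olfr1507 took 0.0979 and 0.486% of receptor TPM in OSN and 0.369 and 0.769% in neg, which overlap. Olfr1508 took 0.0441 and 0.0304% against 0.145 and 0.191%, without overlap. The 3 together took 0.189 and 0.595% in OSN and 0.629 and 1.05% in neg. In gg8 MexHT neg the receptors summed to 4443 and 4996 TPM, above every library of the other table, and the tables were scaled separately.

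**Figure D5:**
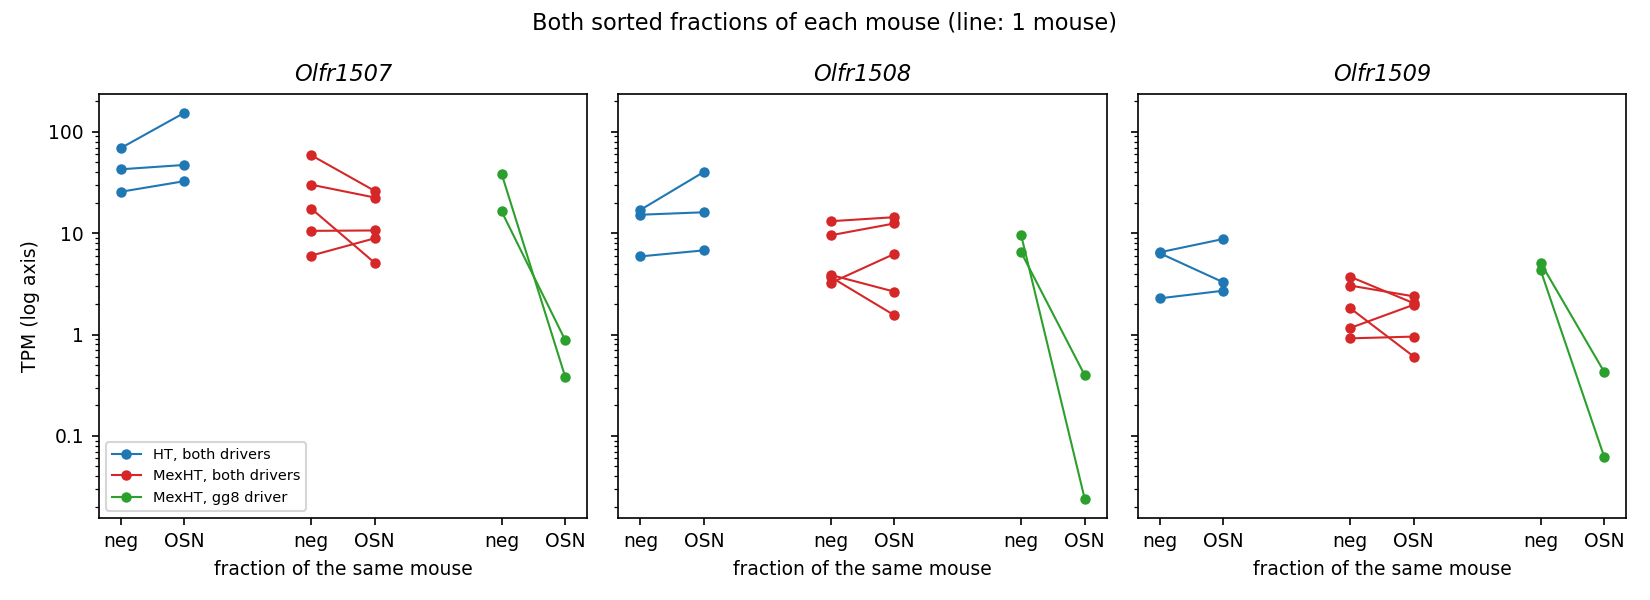
Level of each receptor in TPM on a log axis in the neg and OSN libraries of each mouse (points joined by a line per mouse) for the 3 constructs. Lines of both gg8 mice fall for every gene, those of the HT mice rise in 3 of 3 for Olfr1507 and Olfr1508, and those of the MexHT mice go both ways.

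The other 5 receptor genes within 500 kb, Olfr221 and Olfr1510 to Olfr1513, lie on the side of Olfr1509 away from Olfr1507. In HT OSN their mean TPM ran from 0.779 (Olfr221) to 3.92 (Olfr1511), all 5 below Olfr1509. In MexHT OSN it ran from 0.371 to 1.91 TPM, with 4 of 5 below Olfr1509. In gg8 MexHT neg the range was 2.67 to 7.86 TPM, where Olfr1512 was close to Olfr1508 at 7.99 TPM and 3 of 5 were below Olfr1509. In gg8 MexHT OSN only 1 of 5 was below Olfr1509, and Olfr1511, at 0 and 2.11 TPM (mean 1.05), had a higher mean than all 3 receptors. Between MexHT OSN and HT OSN, Olfr1511 had −0.68 (limma adjusted p = 0.308) and Olfr1512 −0.79 (limma adjusted p = 0.103), and the others were below the level filter. In the gg8 mice Olfr1512 at −2.84 and Olfr1510 at −2.16 were called lower in OSN (limma adjusted p = 0.0307 and 0.0494), and Olfr1511, Olfr1513 and Olfr221 at −2.15, −1.71 and −1.54 were not. Tmem253, the nearest protein-coding gene of another kind on that side, was called lower in MexHT OSN, with a difference of −0.67 (limma adjusted p = 0.0166) and 9.40 ± 1.77 TPM (n = 6) against 15.3 ± 0.614 TPM (n = 3).

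Across the 17 libraries with both drivers the 3 receptors went up and down together. Pearson's r of log2(TPM + 1) was 0.93 between Olfr1507 and Olfr1508, 0.93 between Olfr1507 and Olfr1509, and 0.91 between Olfr1508 and Olfr1509, as a description of libraries that share mice and constructs. It was 0.80 to 0.88 with the summed receptor TPM and 0.78 to 0.88 with Adcy3, and 0.50 to 0.58 with Omp. By rank, Spearman's rho was 0.82 to 0.91 with Adcy3 and 0.68 to 0.79 with Omp. Pearson's r was −0.79 to −0.68 with Mex3a and −0.60 to −0.36 with Gap43, an immature OSN marker. As percent of receptor TPM, r among the 3 was 0.75, 0.84 and 0.63. The search left out the 3, genes with mean TPM under 1, and symbols made of Gm plus digits or ending in Rik. Among the genes searched, those most like each were other receptors. Olfr1178, Olfr1226 and Olfr329-ps (r 0.93, 0.93 and 0.93) were closest to Olfr1507, and Olfr1226, Olfr330 and Olfr1191-ps1 (0.94, 0.92 and 0.91) to Olfr1508. Olfr329-ps, Olfr741 and Olfr1206 (0.95, 0.94 and 0.93) were closest to Olfr1509. These names were the same for each whether all genes or receptors alone were searched.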

How the data were processed

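The authors deposited TPM values (abundance per transcript length, scaled to one total per library) in 2 separately scaled tables, of 17 and 4 libraries. Per the submitters' processing notes, FastQC, cutadapt, STAR, bedtools and the mm10 genome were used; versions, the counting program, the annotation and its strand setting are not given in the sources used here. Per the labels' protocols, 10 ng of RNA entered a stranded SMARTer library kit; no molecular identifiers are mentioned.

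Genes whose symbols had become dates (27 per table) were left out, leaving 23587 and 22918. Whole counts were recovered from the steps of the deposited TPM values (99.99% of genes within 0.02 counts, 0% with wrong library factors; 99.86% within 0.05 in the smaller table) and give depth and error. Replicates differed beyond counting error (chi-square per degree of freedom 3.42 to 126 over 33 pairs). Levels were tested within a table, using only the groups compared, with limma 3.58.1 in R 4.3.3 (empirical Bayes with trend) on log2(TPM + 1), over genes with mean TPM of at least 1, Benjamini-Hochberg adjusted over all of them. Shares were tested with two-sided exact permutation tests in scipy 1.17.1 that ignore the pairing by mouse, 15 adjusted together. For shares, the replicate block was an exact test that flips the signs of within-mouse differences. Fits were tested on simulated counts. In the gg8 comparison false calls fell on genes with very few reads over its 4 libraries. The 3 receptors had more, but mostly from neg. Olfr1508 had 213 and 292 reads in neg against 12 and 1 in OSN. Olfr1509 had 65 and 51 in neg against 5 and 1. The 2 gg8 MexHT OSN libraries differed with a chi-square per degree of freedom of 126. Whether these counts varied as much was not tested.

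OSN and neg libraries of one number are paired by mouse, per the labels; correlations of their deviations were 0.18 to 0.47 in HT, −0.11 to 0.42 in MexHT and 0.018 in the gg8 mice. Those of MexHT neg with HT neg were 0.23 to 0.42, but these groups have different genotypes and so come from different mice. A shared number does not pair them by mouse, and whether it marks a shared batch was not tested. Named were the 3 receptors, Mex3a, receptors within 500 kb with the flanking gene, and list genes either side of the threshold. Also named were the 3 genes most correlated with each receptor, symbols made of Gm plus digits or ending in Rik passed over. Members and lists were chosen with earlier results of these data known. Alternatives were a pseudocount of 0.1, no level filter, median-of-ratios scaling, voom on recovered counts, the replicate block, Xist as covariate, other share denominators, and leaving out each library. Sequence alignments used MAFFT. Editing sites were not analysed here.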

Additional observations from a re-analysis of the deposited data

Results flagged for a closer look

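The share of Olfr1509 in receptor TPM was 0.0683% in the fourth MexHT OSN library, from 5 reads, while the other 5 libraries lay between 0.149 and 0.193%. Its gap to the nearest library exceeded Dixon's 95% critical value for 6 samples. Of 12 such checks, on the levels and shares of the 3 receptors in MexHT OSN and MexHT neg, this one passed, and chance passes about 1 in 20.

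The difference between OSN and neg went opposite ways in HT and gg8 MexHT mice for a pair of the receptors. For Olfr1507 the mean log2 difference was 0.54 in HT, higher in 3 of 3 mice, and −4.02 in gg8 MexHT, lower in 2 of 2. For Olfr1508 it was 0.48 in HT, higher in 3 of 3, and −2.89 in gg8 MexHT, lower in 2 of 2. This difference between the groups was not tested; construct, driver and library date all differ between them and cannot be told apart.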

How the results depend on the processing

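Between MexHT OSN and HT OSN, the Xist covariate left 329 of 5907 genes called and moved Olfr1507 to −1.67 and Olfr1509 to −0.65, neither called; the replicate block moved Olfr1509 to −0.78 (limma adjusted p = 0.1503). These groups come from different mice, so shared numbers do not pair them by mouse (correlations 0.11, 0.13 and −0.23). Leaving out one library gave 3745 to 6506 genes, Olfr1507 −2.89 to −1.79, and Olfr1509 −1.44 to −0.74 with its call lost without HT OSN 1 or 2 or MexHT OSN 4 or 6.

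In HT OSN against HT neg, 1923 genes became 4967 with the replicate block, 1188 with voom and 660 to 4183 with one library left out. Leaving one out gave −0.11 to 0.99 for Olfr1507, −0.13 to 1.07 for Olfr1508, −0.50 to 0.20 for Olfr1509 and −0.0038 to 0.0942 percentage points for the share of Olfr1509. MexHT neg against HT neg had 1 gene called without the level filter and 0 to 4 with a library left out, when the share difference of Olfr1508 was −0.0968 to 0.00269. In MexHT OSN against neg, leaving one out gave −0.55 to 0.00 for Olfr1508 (0.00497 without MexHT neg 2) and −0.388 to 0.130 for the share of Olfr1507. The interaction kept 1195 to 2483 genes and −0.50 to 0.19 for Olfr1509.

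In the gg8 mice a pseudocount of 0.1 left 646 of 1372 genes, with −5.00 for Olfr1508 and −4.03 for Olfr1509, uncalled; without the level filter Olfr1509 stayed at −2.20 (limma adjusted p = 0.0535). Leaving one out gave 0 to 3703 genes, −4.61 to −3.43 for Olfr1507, −3.14 to −2.64 for Olfr1508 and −2.42 to −1.99 for Olfr1509; a lone library is assumed to vary like the other group. The replicate block changed no other call of the 3 receptors. The causes were not tested. Of all 504 alternative values, 452 kept direction and call or moved little, most of them for results uncalled to begin with. A call was lost in 20, all of them among the receptor differences that had passed. Direction reversed in 12, and 20 numbers of genes called moved further. With 1 to 26 reads in MexHT OSN and gg8 OSN, depth limits Olfr1509.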
